A study of Mus musculus with 4 samples.

Results

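Retinoid handling in the mouse colon was followed through 9 genes: Lrat, Rbp2, Rbp4, Rdh10, Dhrs3, Aldh1a1, Aldh1a2, Aldh1a3 and Bco1. They cover retinoid storage, transport and retinoic acid synthesis, were taken by symbol from a table of 46095 genes, and all 9 had enough counts to be tested. Total RNA was sequenced from the colon of 21-day-old C57BL/6 mice. There were 2 libraries from wild-type mice (WT 1 and WT 2) and 2 from mice labelled Esr2-/- (Esr2-KO 1 and Esr2-KO 2). Esr2 is the gene of estrogen receptor β. The labels name no agent, and they do not state the sex, the part of the colon, the hour of collection, the deleted part of Esr2 or whether each library comes from an animal of its own. The members were chosen with their values in these libraries known, so their difference between the genotypes is given as a description and supports nothing by itself.

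Vitamin A reaches the gut as carotenoids and retinyl esters. Bco1 cleaves β-carotene to retinal, Rbp2 binds retinol and retinal inside the absorptive cell, Lrat esterifies retinol for storage, and Rbp4 carries retinol in plasma. Rdh10 oxidises retinol to retinal, Dhrs3 works in the opposite direction, and the Aldh1a enzymes oxidise retinal irreversibly to retinoic acid, the ligand of the nuclear receptors Rara, Rarb and Rarg. In the intestine retinoic acid is known for its part in epithelial differentiation and in the homing of lymphocytes.

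Library totals ran from 30826790 to 33709643 counts. Levels are given as CPM, the count scaled by the TMM-adjusted library total, on which scale 3 counts, taken as the limit that a 0 allows, equal 0.0825 to 0.114 CPM. Esr2 had 21 and 13 counts in the WT libraries against 6 and 16 in the Esr2-KO libraries, overlapping groups that neither checked nor contradicted the labels. Esr2-KO 2 stood apart: 12 genes of the exocrine pancreas held 16.6% of its counts, against 0.0287% to 0.115% in the other libraries. All 11 markers of colon epithelium were present in every library. Of 17169 genes tested across the table, 462 passed an adjusted p of 0.05 (2.69%), 223 higher (1.30%) and 239 lower (1.39%) in Esr2-KO. The count was 165 without WT 1, 331 without WT 2, 1804 without Esr2-KO 1 and 501 without Esr2-KO 2. With all 4 libraries, 3535 of the 17169 had an unadjusted p under 0.05 in edgeR, 1663 higher and 1872 lower. DESeq2 called 796 of the 17169 higher and 874 lower, and limma-voom 304 and 302. Both Esr2-KO libraries lay above both WT libraries in 27.0% of tested genes and below in 27.7%. These are the background for the counts of every list below. In bulk colon, fewer cells of a type and less RNA per cell cannot be told apart, and this touches every result that follows.

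The stretch of 250 bases before a transcription start is shown for 4 members, the 2 whose transcripts passed the threshold as lower in Esr2-KO (Lrat and Aldh1a1) and 2 that stood higher in both Esr2-KO libraries (Rbp2 and Bco1). Sequences are those of RefSeq on GRCm38.p6, printed 5′ to 3′ on the strand of the gene, and matched 7 of the 9 members, with 11 windows in all. Aldh1a1 has 2 starts in that table: the window of the upstream one is printed, and the other start lies at position 20601968, inside the gene. Which of the 2 starts is used in these colon libraries was not determined, so the printed window need not be that of the transcripts counted. Capitals mark matches to the motifs searched, on both strands: AGGTCA, the half-site of many nuclear receptors, its direct repeats AGGTCANAGGTCA, AGGTCANNAGGTCA and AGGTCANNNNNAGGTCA, the estrogen response element GGTCANNNTGACC, and the TATA box TATAAA.
Lrat, chr3:82903975-82904224, minus strand: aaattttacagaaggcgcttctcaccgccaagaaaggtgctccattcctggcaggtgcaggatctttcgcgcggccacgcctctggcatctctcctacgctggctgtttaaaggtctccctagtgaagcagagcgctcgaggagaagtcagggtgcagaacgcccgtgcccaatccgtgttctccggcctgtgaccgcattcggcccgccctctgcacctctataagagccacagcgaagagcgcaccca
Aldh1a1, chr19:20492333-20492582, plus strand: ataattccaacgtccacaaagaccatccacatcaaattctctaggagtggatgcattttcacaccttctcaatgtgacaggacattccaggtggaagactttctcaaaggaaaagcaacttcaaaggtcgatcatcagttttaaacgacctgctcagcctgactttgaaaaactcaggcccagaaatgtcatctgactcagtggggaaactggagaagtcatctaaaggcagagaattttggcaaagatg
Rbp2, chr9:98490287-98490536, plus strand: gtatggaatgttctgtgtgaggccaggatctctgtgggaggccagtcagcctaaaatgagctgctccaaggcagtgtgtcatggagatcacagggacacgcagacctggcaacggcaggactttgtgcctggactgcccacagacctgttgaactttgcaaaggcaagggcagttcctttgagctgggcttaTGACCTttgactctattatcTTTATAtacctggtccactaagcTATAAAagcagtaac
Bco1, chr8:117095615-117095864, plus strand: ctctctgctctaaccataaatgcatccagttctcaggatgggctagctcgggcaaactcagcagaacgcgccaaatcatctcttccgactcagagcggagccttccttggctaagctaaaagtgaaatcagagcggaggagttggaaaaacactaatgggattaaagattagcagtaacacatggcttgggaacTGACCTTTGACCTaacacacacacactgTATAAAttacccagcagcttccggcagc
The Bco1 window held the direct repeat AGGTCANAGGTCA on its minus strand, beginning 56 bases before the start, with the half-sites at -56 and -49 inside it and a TATA box at -28. That repeat, the layout bound by heterodimers of RXR with PPAR among others, occurred in 11 of 32851 such windows (0.0335%). The Rbp2 window held the half-site at -58 and TATA boxes at -38 and -15. Over all windows, 14.0% held the half-site and 12.4% the TATA box. The window of Lrat and both windows of Aldh1a1 held none of these letters, and no member's window held the estrogen response element, which occurred in 0.0639% of all windows. A match or its lack describes the letters of these windows only.

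Lrat and Aldh1a1 were the 2 of 9 members that passed the threshold across all genes, and both fell in Esr2-KO colon. None rose by edgeR, while 2 were higher and 4 lower at an unadjusted p under 0.05 in edgeR. DESeq2 called 1 higher and 4 lower, and limma-voom 0 higher and 2 lower. Over all tested genes 2.69% passed, and nothing is read from the members' share because they were chosen on this contrast. In 7 of the 9 both Esr2-KO libraries lay on one side of both WT libraries, 3 above (27.0% of all tested genes) and 4 below (27.7%), where 54.7% of all tested genes lay on either side. The median log2 fold change was -0.21 over the members and -0.00 over all tested genes, and the median of its size was 0.92 against 0.26. Of the 2 that fell, Lrat acts in storage and Aldh1a1 in synthesis, while the uptake genes Rbp2 and Bco1 stood higher in both Esr2-KO libraries without passing, as the plot of the 9 genes by library shows.

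**Figure D1:**
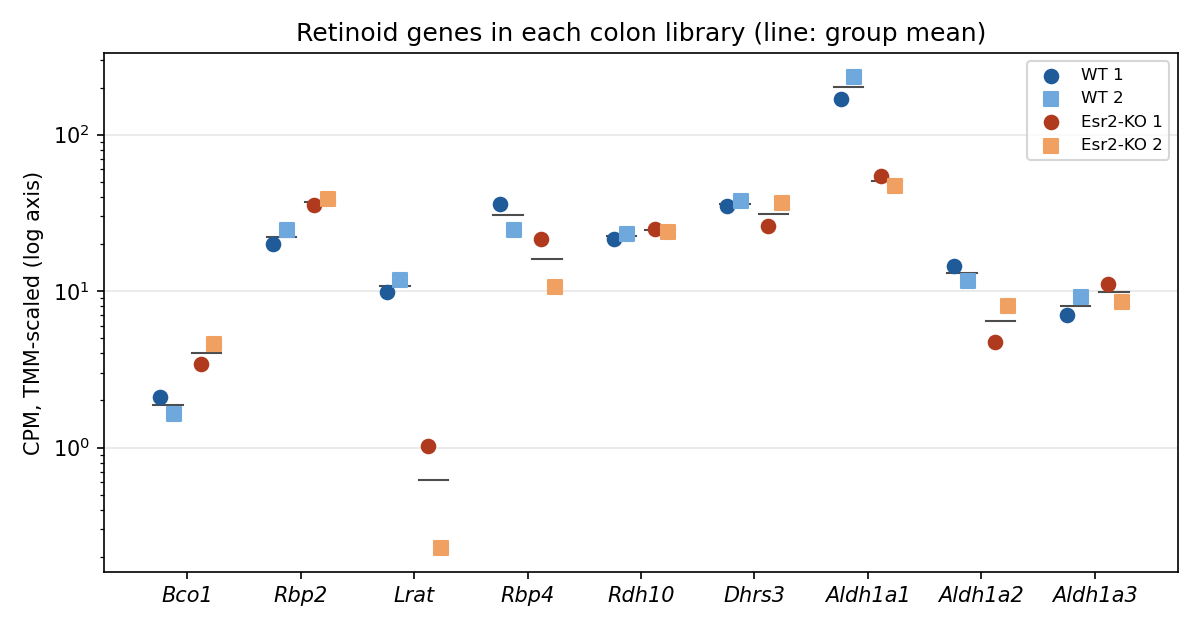
Level of the 9 retinoid genes in each library, as TMM-scaled CPM on a log axis; points are libraries and lines are the means of 2 libraries. Lrat drops from 9.91 and 11.7 CPM in WT to 1.02 and 0.227 CPM in Esr2-KO, while Rbp2 and Bco1 stand higher in both Esr2-KO libraries.

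Lrat (chromosome 3, 82892582 to 82903974, GRCm38, minus strand), which makes the retinyl esters that cells store, had 360 and 406 counts in the WT libraries against 35 and 6 in the Esr2-KO libraries. These counts equal 9.91 and 11.7 CPM against 1.02 and 0.227 CPM. Both Esr2-KO libraries lay far below both WT libraries, and Esr2-KO 2 lay lower than Esr2-KO 1. The group means were 10.8 ± 1.24 and 0.625 ± 0.562 CPM (SD, n = 2), a 17.3-fold difference in means and a log2 fold change of -4.05 ± 0.56 (SE). Only 0.652% of the tested genes had a fold change of larger size. It did not pass the threshold without WT 1 (log2 fold change -4.17) or without WT 2 (-3.93). In those fits a lone WT library was left, and fewer genes passed over the whole table as well. The value was -5.54 without Esr2-KO 1 and -3.39 without Esr2-KO 2. The reason for the change of side was not tested.

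Rbp2 (chromosome 9, 98490537 to 98509771, plus strand), the cellular retinol-binding protein of absorptive cells that hands retinol to Lrat, had 730 and 854 counts in the WT libraries against 1209 and 1019 in the Esr2-KO libraries. In CPM it stood at 20.1 and 24.5 against 35.3 and 38.6, so that the groups did not overlap. The means were 22.3 ± 3.14 and 37.0 ± 2.34 CPM (SD, n = 2), with a log2 fold change of 0.73 ± 0.15 (SE) that did not pass the threshold. It passed without Esr2-KO 1 (0.80), with no low-count filter (0.74) and with DESeq2 (0.73), and not without any of the other 3 libraries (0.59 to 0.90). For each count of Lrat there were 2.03 and 2.10 counts of Rbp2 in WT, and 34.5 and 169.8 in Esr2-KO. These ratios do not depend on the scaling of the libraries, but they mostly restate the lower Lrat. The Esr2-KO ratios rest on 35 and 6 counts of Lrat, so that the value of 169.8 is imprecise.

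Bco1 (chromosome 8, 117095851 to 117133720, plus strand), which opens the β-carotene molecule, was the least abundant member per length in WT. It had 76 and 57 counts in the WT libraries against 117 and 121 in the Esr2-KO libraries, or 2.09 and 1.64 CPM against 3.42 and 4.59 CPM. The groups did not overlap, the means were 1.86 ± 0.321 and 4.0 ± 0.826 CPM (SD, n = 2), and the log2 fold change of 1.10 ± 0.34 (SE) did not pass. Isx, a gut homeobox repressor of Bco1 that retinoic acid is known to induce, belongs to the wider pathway list and is named here after its values were seen. Isx stood at 83.1 and 112 CPM in the WT libraries against 7.77 and 0.493 CPM in the Esr2-KO libraries, with a log2 fold change of -4.52 ± 0.89 (SE) with an edgeR adjusted p of 0.0547. It did not pass with all 4 libraries, without WT 1 (-4.72, edgeR adjusted p = 0.125) or without WT 2 (-4.29, edgeR adjusted p = 0.115). It passed without Esr2-KO 1 (-7.61, edgeR adjusted p = 3.77e-07), without Esr2-KO 2 (-3.64, edgeR adjusted p = 0.000471), with library totals (edgeR adjusted p = 0.0098), with no low-count filter (2.03e-07), with DESeq2 (0.0333) and with limma-voom (0.0327). Scarb1, the carotenoid uptake receptor that Isx is also known to repress, stood at 42.3 and 35.6 CPM in the WT libraries against 35.1 and 37.0 CPM in the Esr2-KO libraries, within the WT spread apart from the Esr2-KO 1 value just under it.

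Rbp4 (chromosome 19, 38116620 to 38125321, minus strand), the plasma carrier of retinol, had 1320 and 856 counts in the WT libraries against 733 and 283 in the Esr2-KO libraries. Its levels were 36.3 and 24.6 CPM in the WT libraries against 21.4 and 10.7 CPM in the Esr2-KO libraries, so that WT 2 and Esr2-KO 1 were close and Esr2-KO 2 was lowest. The log2 fold change of -0.92 ± 0.34 (SE) did not pass. The value moved with the libraries used: it was -0.50 without Esr2-KO 2, -0.61 without WT 1, -1.16 without WT 2 and -1.50, past the threshold, without Esr2-KO 1. It also passed with no low-count filter (-0.91) and with DESeq2 on all genes with a count (-0.92), though not with DESeq2 after the low-count filter. Adipocytes are a known source of Rbp4, and the sum of 8 adipocyte markers was 225 and 512 CPM in the WT libraries against 469 and 152 CPM in the Esr2-KO libraries, an order of libraries that differed from that of Rbp4. Their part in the Rbp4 values was not tested.

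Rdh10 and Dhrs3, the pair that sets the balance of retinol and retinal, did not pass the threshold. Rdh10 (chromosome 1, 16105882 to 16132550, plus strand) stood at 21.5 and 23.2 CPM in the WT libraries against 24.8 and 24 CPM in the Esr2-KO libraries, with a log2 fold change of 0.12 ± 0.13 (SE) that turned to -0.04 with unadjusted library totals, where the median of all genes shifted by -0.16. Dhrs3 (chromosome 4, 144892534 to 144928209, plus strand) stood at 34.9 and 37.6 CPM in the WT libraries against 26.2 and 36.4 CPM in the Esr2-KO libraries, with overlapping groups and a log2 fold change of -0.21 ± 0.18 (SE) that turned to 0.01 without Esr2-KO 1. Each count of Dhrs3 was met by 0.617 and 0.619 counts of Rdh10 in WT and by 0.944 and 0.659 in Esr2-KO, so that Esr2-KO 1 stood apart in this ratio and Esr2-KO 2 lay near WT.

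Aldh1a1 (chromosome 19, 20492583 to 20643463, plus strand) was the most abundant of the 3 Aldh1a members in every library and the other member that fell. It had 6109 and 8180 counts in the WT libraries against 1859 and 1245 in the Esr2-KO libraries, or 168 and 235 CPM against 54.3 and 47.2 CPM. The groups lay well apart, with the lower WT library above both Esr2-KO libraries. The means were 202 ± 47.3 and 50.8 ± 5.03 CPM (SD, n = 2), a 3.97-fold difference and a log2 fold change of -1.99 ± 0.19 (SE). It passed under every alternative run (other scalings, filters, tools, the replicate block and each library left out), with values from -1.71 without WT 2 to -2.21 without WT 1.

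A near copy of this gene, Aldh1a7, lies downstream on the same chromosome (20692953 to 20727556, minus strand), and the coding sequences of both are 91.6% identical over 1503 bases. Of the 50-base words of the Aldh1a1 coding sequence 10.4% also occur in Aldh1a7, and the counting could have split such reads, which leaves some uncertainty in both. Aldh1a7 stood at 28.3 and 22.1 CPM in the WT libraries against 17.5 and 24.1 CPM in the Esr2-KO libraries, with overlapping groups. Per kilobase of merged exon, Aldh1a7 lay below Aldh1a1 in 3 libraries and above it in Esr2-KO 2, at 11.7 against 9.56 CPM per kilobase. Summed, the pair held 196 and 257 CPM in the WT libraries against 71.8 and 71.3 CPM in the Esr2-KO libraries, so that the gap between the groups was present in the sum. Aldh1a2 and Aldh1a3 are 69.8% and 69.1% identical to Aldh1a1 over their coding sequences and share no 50-base word with it.

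Aldh1a2 (chromosome 9, 71215789 to 71296243, plus strand), the enzyme of mesothelium, stroma and some dendritic cells, had 526 and 403 counts in the WT libraries against 163 and 213 in the Esr2-KO libraries. Its levels were 14.5 and 11.6 CPM against 4.76 and 8.07 CPM, without overlap. The log2 fold change of -1.03 ± 0.29 (SE, n = 2 per group) did not pass, except without Esr2-KO 2 (-1.44), with library totals (-1.22), with DESeq2 (-1.02, before and after the low-count filter) and with no low-count filter (-1.01). The 6 mesothelial markers summed to 39.7 and 29.1 CPM in the WT libraries against 16.5 and 29.2 CPM in the Esr2-KO libraries, highest in WT 1 and lowest in Esr2-KO 1, as Aldh1a2 was. None of the 6 passed with edgeR, DESeq2 or limma-voom, and 1 had an unadjusted p under 0.05 in edgeR. Lower in both Esr2-KO libraries were 3 of the 6, against 27.7% of all tested genes. The part of mesothelium in the Aldh1a2 values was not tested. The 6 dendritic cell markers summed to 16.0 and 22.3 CPM in the WT libraries against 21.1 and 17.5 CPM in the Esr2-KO libraries, and the 7 fibroblast markers to 2251 and 2337 against 2433 and 2472 CPM.

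Aldh1a3 (chromosome 7, 66390892 to 66427477, minus strand) stood at 6.99 and 9.11 CPM in the WT libraries against 11.1 and 8.57 CPM in the Esr2-KO libraries. The groups overlapped and the log2 fold change was 0.29 ± 0.24 (SE), not past the threshold. Per kilobase of merged exon, the 3 enzymes together held 42 and 54.7 CPM in the WT libraries against 15.5 and 15 CPM in the Esr2-KO libraries. Aldh1a1 made up 81.2% and 87.0% of that sum in WT and 70.9% and 63.8% in Esr2-KO. The share of Aldh1a3 was 3.61% in both WT libraries and 15.5% and 12.4% in Esr2-KO, while that of Aldh1a2 was 15.2% and 9.35% against 13.6% and 23.8%. The shares of Aldh1a1 and Aldh1a3 thus did not overlap between the genotypes and those of Aldh1a2 did. Since the shares add up to the whole, a lower Aldh1a1 by itself raises the shares of the others. The level of Aldh1a3 itself overlapped, so nothing further is read from its share.

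**Figure D2:**
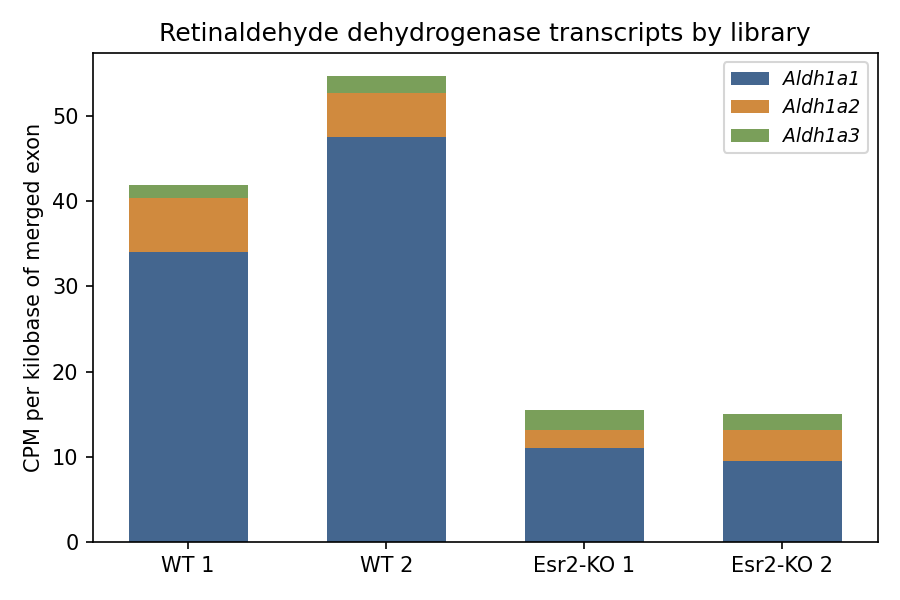
Transcripts of the 3 retinaldehyde dehydrogenases in each library, stacked, in CPM per kilobase of merged exon. Bars reach 42 and 54.7 in WT and 15.5 and 15 in Esr2-KO, and the Aldh1a1 segment accounts for most of the difference in height.

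Levels were compared between genes per kilobase of merged exon, with gene models of GENCODE M21. In WT the order was Aldh1a1 (40.8 ± 9.58 CPM per kilobase, SD, n = 2), Rbp2 (23.2 ± 3.27), Rbp4 (22.7 ± 6.18), Dhrs3 (12.4 ± 0.635), Aldh1a2 (5.75 ± 0.905), Rdh10 (5.38 ± 0.288), Lrat (2.02 ± 0.232), Aldh1a3 (1.74 ± 0.324) and Bco1 (0.733 ± 0.126). The library values of the neighbours Rbp2 and Rbp4, Aldh1a2 and Rdh10, and Lrat and Aldh1a3 overlapped, so that their order was within the spread. In Esr2-KO Rbp2 led with 38.4 ± 2.43 CPM per kilobase and Lrat came last with 0.117 ± 0.105, both clear of their neighbours. Between them Rbp4 (12 ± 5.63), Dhrs3 (10.7 ± 2.46) and Aldh1a1 (10.3 ± 1.02) overlapped in turn, as did Aldh1a2 (2.83 ± 1.03) and Aldh1a3 (2.13 ± 0.393). By the group means Aldh1a1 thus went from the first to the fourth place, though its order with Rbp4 and Dhrs3 in Esr2-KO was within the spread. Lrat went from the seventh place to the last. These levels rest on the annotated exons, which need not be those used in the colon.

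**Figure D3:**
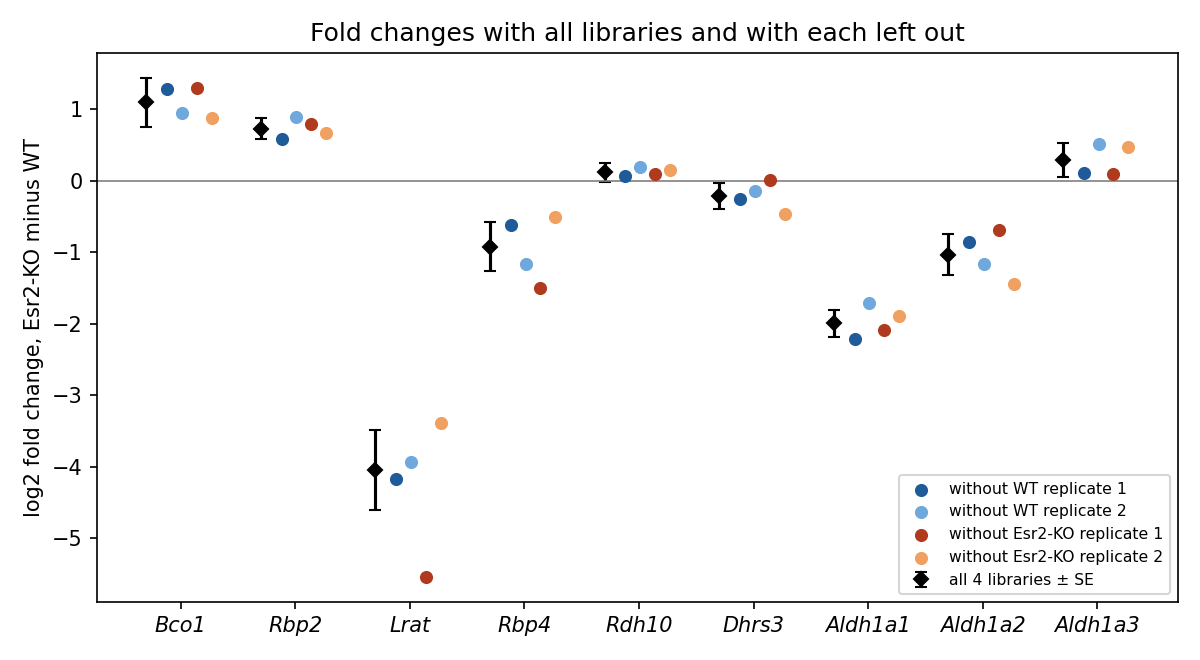
Log2 fold change (Esr2-KO minus WT) of the 9 genes with all 4 libraries, with its SE, and with each library left out. Lrat ranges from -5.54 to -3.39 and Aldh1a1 from -2.21 to -1.71, while Dhrs3 crosses 0 without Esr2-KO 1.

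Beyond the 9 members, 56 further genes of retinoid uptake, binding, conversion, signalling and response were followed, of which 46 were tested. Of these 3 rose and 3 fell, 13% of those tested, where 2.69% of all tested genes passed. The lists were chosen with earlier results of these data known, so nothing is read from that 13%. The median log2 fold change of the 46 was -0.11. The 3 that rose were Ttr, Rdh16 and Adh1, and the 3 that fell were Ces1d, Rdh1 and Adh5. Adjusted p-values come from the quasi-likelihood test of edgeR, adjusted over all genes by Benjamini-Hochberg, and they measure the spread between these libraries, which may be technical.

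Genes of uptake and plasma transport held 1 rise in 7 tested, that of Ttr, which encodes transthyretin, the partner of Rbp4 in plasma. Ttr stood at 8.25 and 16.4 CPM in the WT libraries against 64.8 and 76.9 CPM in the Esr2-KO libraries, with a log2 fold change of 2.52 ± 0.31 (SE) with an edgeR adjusted p of 0.021. Ttr and Rbp4 thus stood on opposite sides of WT in Esr2-KO colon. Stra6, the membrane receptor that takes retinol from Rbp4, was named after its values were seen: it had 17 and 31 counts in the WT libraries against 163 and 48 in the Esr2-KO libraries, a log2 fold change of 2.28 ± 0.59 (SE) with an edgeR adjusted p of 0.0988, with Esr2-KO 1 highest. It passed without Esr2-KO 2 (2.81, edgeR adjusted p = 0.0229), with no low-count filter (0.003) and with DESeq2 (0.00786), and did not pass without Esr2-KO 1 (1.42, edgeR adjusted p = 0.211), without WT 1 (0.387) or without WT 2 (0.153).

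In retinyl ester turnover, the carboxylesterase Ces1d fell, as 1 of 6 tested. It stood at 63.8 and 79.7 CPM in the WT libraries against 28.9 and 25.5 CPM in the Esr2-KO libraries, with a log2 fold change of -1.40 ± 0.15 (SE) and an edgeR adjusted p of 0.0196. It belongs to a cluster of closely related esterase genes, so reads could have been split among them. All 6 had a negative log2 fold change, from -1.40 to -0.03, where 8637 of all 17169 tested genes did. Both Esr2-KO libraries were lower for 4 of the 6, and for 27.7% of all tested genes. The 6 include acyltransferases that can also esterify retinol. Dgat1 stood at 25.2 and 31.5 CPM in the WT libraries against 27.2 and 28.5 CPM in the Esr2-KO libraries, with a log2 fold change of -0.03 ± 0.15 (SE). Awat2 had 52 and 38 counts in the WT libraries against 34 and 19 in the Esr2-KO libraries (-0.55 ± 0.47, SE), lower in both and not past the threshold.

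The oxidoreductases of retinol and retinal held 4 of the 6 calls, 2 higher and 2 lower among 15 tested. Adh1, a cytosolic alcohol dehydrogenase that also oxidises retinol, rose from 241 and 423 to 1214 and 1238 CPM (log2 fold change 1.89 ± 0.29, SE, edgeR adjusted p = 0.0305). Adh5, the glutathione-dependent formaldehyde dehydrogenase of the same family, fell from 116 and 143 to 79.2 and 71.5 CPM (-0.78 ± 0.14, edgeR adjusted p = 0.0446). The Adh5 call ended without WT 1 (edgeR adjusted p = 0.0558), without WT 2 (0.117), without Esr2-KO 2 (0.086) and with the replicate number as a block (0.0642). Among the microsomal short-chain dehydrogenases, Rdh16 rose from 12.6 and 20.3 to 48.0 and 47.0 CPM (1.53 ± 0.23, edgeR adjusted p = 0.0297) and Rdh1 fell from 4.87 and 4.85 to 0.993 and 0.720 CPM (-2.49 ± 0.34, edgeR adjusted p = 0.0257). Rdh1, Rdh9 and Rdh16 are close relatives whose reads could have been split, and the Rdh1 call ended without WT 1 (edgeR adjusted p = 0.0954) and without WT 2 (0.0677). Dhrs9, a retinol dehydrogenase of epithelium named after its values were seen, stood at 30.0 and 14.5 CPM in the WT libraries against 6.22 and 1.63 CPM in the Esr2-KO libraries, with a log2 fold change of -2.48 ± 0.61 (SE). Its edgeR adjusted p was 0.0883 with all 4 libraries. It passed without Esr2-KO 1 (edgeR adjusted p = 0.000694), without Esr2-KO 2 (0.0464), with the replicate number as a block (0.0203), with library totals (0.0245) and with no low-count filter (3.1e-05). It did not pass without WT 1 (-1.88, edgeR adjusted p = 0.334), without WT 2 (0.0883), with DESeq2 (0.0869) or with limma-voom (0.0863).

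None of the 5 tested receptors passed with edgeR, DESeq2 or limma-voom, and 1 had an unadjusted p under 0.05 in edgeR. The receptor gene Rarb, itself a known target of retinoic acid, stood at 3.25 and 4.14 CPM in the WT libraries against 1.99 and 1.93 CPM in the Esr2-KO libraries (log2 fold change -0.91 ± 0.32, SE, edgeR adjusted p = 0.176), and Rara at 22.8 and 26.0 against 30.5 and 28.8 CPM (0.28 ± 0.14, edgeR adjusted p = 0.309). None of 10 tested genes known to respond to retinoic acid passed with these 3 tools either, with 2 at an unadjusted p under 0.05 in edgeR. Over all tested genes 2.69% passed in edgeR, and 3535 of 17169 had an unadjusted p under 0.05. In lists this short, a lack of calls does not show whether the receptors and response genes changed. The list median was -0.14, and 5 of the 10 were lower in both Esr2-KO libraries, against 27.7% of all tested genes. Rai14 (-0.46 ± 0.15, SE, edgeR adjusted p = 0.149) and Nrip1 (-0.31 ± 0.12, edgeR adjusted p = 0.218) ranked first in that list by p-value. Of the retinoic acid-degrading enzymes, Cyp26a1 had at most 2 counts and Cyp26c1 at most 1 in any library, and Cyp26b1 had 12 and 46 counts in the WT libraries against 42 and 9 in the Esr2-KO libraries, overlapping groups with a log2 fold change of -0.05 ± 0.85 (SE) that ran from -1.26 to 1.27 with each library left out. Among cellular binding proteins Fabp5 had a log2 fold change of -0.47 ± 0.21 (SE, edgeR adjusted p = 0.265) and Crabp1 of 0.68 ± 0.51 (edgeR adjusted p = 0.494).

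**Figure D4:**
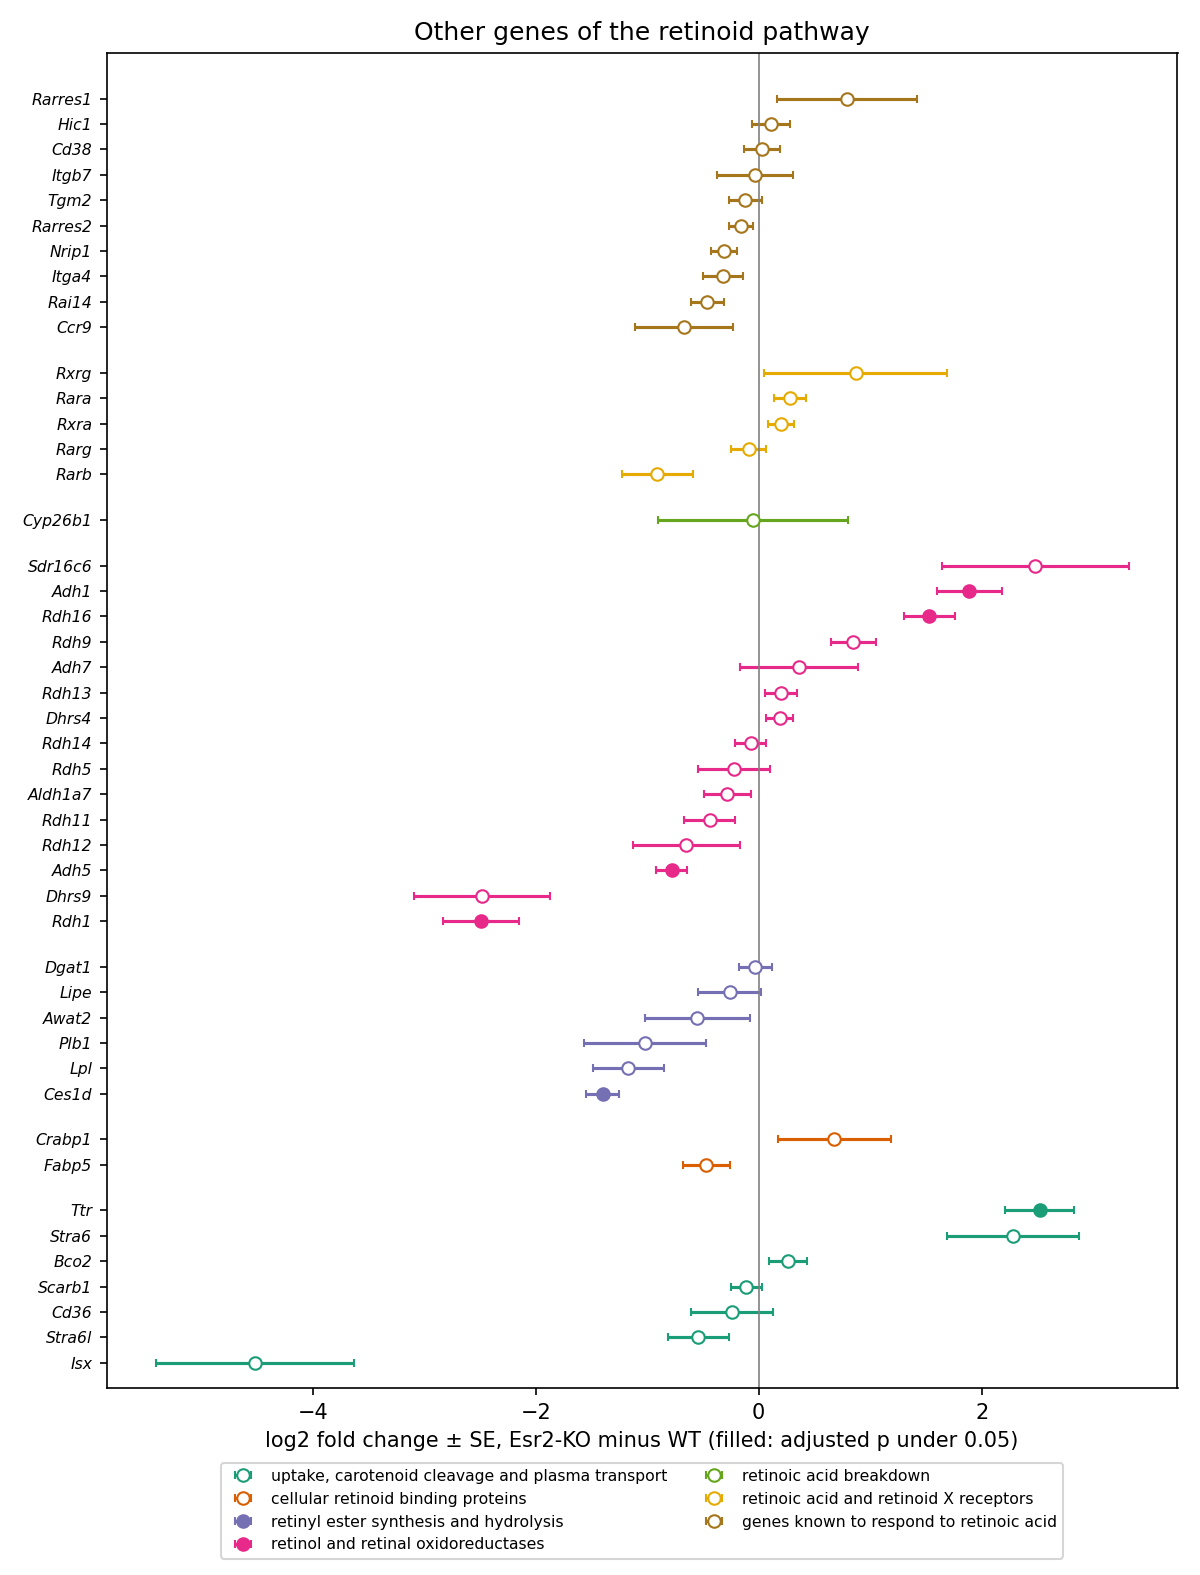
Log2 fold change (Esr2-KO minus WT) with its SE for the 46 tested genes of the wider retinoid pathway, coloured by list; filled points passed an adjusted p of 0.05. Ttr, Adh1 and Rdh16 lie to the right and Ces1d, Rdh1 and Adh5 to the left. No receptor or response gene is filled, where 2.69% of all tested genes passed.

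Of the 6 posterior homeobox genes, which mark position along the gut, 2 rose, Hoxb13 and Hoxd12. Together the 6 summed to 99.4 and 201 CPM in the WT libraries against 811 and 921 CPM in the Esr2-KO libraries. All 6 were higher in both Esr2-KO libraries, against 27.0% of all tested genes. Their median log2 fold change was 3.27, and DESeq2 called 2 of them higher and limma-voom 4. Hoxb13, which held most of the sum, stood at 72.7 and 153 CPM in WT against 615 and 675 CPM in Esr2-KO. Hoxd13 had 47 and 667 counts in the WT libraries against 4137 and 4095 in the Esr2-KO libraries. For these genes the WT libraries thus also differed from each other. Of 11 colon epithelium markers 2 fell with edgeR and none rose, while DESeq2 called 3 higher and 3 lower. In both Esr2-KO libraries 4 were higher and 4 lower, where 27.0% and 27.7% of all tested genes were. The 2 that fell were the carbonic anhydrase Car1 and the intestinal homeobox factor Cdx2, which went from 199 and 164 CPM in WT to 60.9 and 27.9 CPM in Esr2-KO. The goblet cell mucin Muc2 (log2 fold change -1.59 ± 0.40, SE) and the keratin Krt20 (-0.65 ± 0.23) were the other 2 lower in both. Those higher in both were the anion exchanger Slc26a3 (0.80 ± 0.23), Cdh1 (0.42 ± 0.18), Cdx1 (0.41 ± 0.14) and Vil1 (0.04 ± 0.15), none past the threshold. The epithelial adhesion gene Epcam stood at 1366 and 1375 CPM in the WT libraries against 1444 and 1327 CPM in the Esr2-KO libraries, with overlapping groups.

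Of 13 small intestinal enterocyte markers, 6 had enough counts to be tested and none passed with edgeR, where 3 had an unadjusted p under 0.05, while DESeq2 and limma-voom each called 1 higher and 1 lower. They summed to 85.1 and 135 CPM in the WT libraries against 127 and 131 CPM in the Esr2-KO libraries, a sum held mostly by the glucose transporter Slc5a1 (58.7 and 77.7 CPM in the WT libraries against 115 and 114 CPM in the Esr2-KO libraries). Single markers went either way, with 4 higher and 3 lower in both Esr2-KO libraries. The 3 lower were the alkaline phosphatase Alpi, at 20.6 and 32.8 CPM in the WT libraries against 3.97 and 0.265 CPM in the Esr2-KO libraries (-3.61 ± 0.87, SE), Sis, at 10 and 438 counts against 2 and 0, and Fabp1, at 17 and 40 counts against 0 and 0. The 4 higher were Slc5a1, Mttp (0.68 ± 0.32) and, at no more than 6 counts in any library, Lct and Treh. Over the 9 marker lists other than colon epithelium, exocrine pancreas and posterior homeobox genes, none of 51 tested genes passed with edgeR. An unadjusted p under 0.05 was found for 9 of the 51, and for 3535 of all 17169 tested genes. DESeq2 called 2 of the 51 higher and 1 lower, and limma-voom 1 higher and 1 lower. The 12 exocrine pancreas markers summed to 267 and 314 CPM in WT, 1105 CPM in Esr2-KO 1 and 193795 CPM in Esr2-KO 2, with 1 of them at 0 throughout. All 11 tested were higher in both Esr2-KO libraries, had an unadjusted p under 0.05 in edgeR and were called higher by DESeq2. Only Spink1 passed with edgeR and limma-voom, at 119 and 138 CPM in the WT libraries against 285 and 348 CPM in the Esr2-KO libraries. Without Esr2-KO 2, Lrat and Aldh1a1 still passed, with values of -3.39 and -1.89. The part of position along the gut and of epithelial composition in the members' values was not tested.

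**Figure D5:**
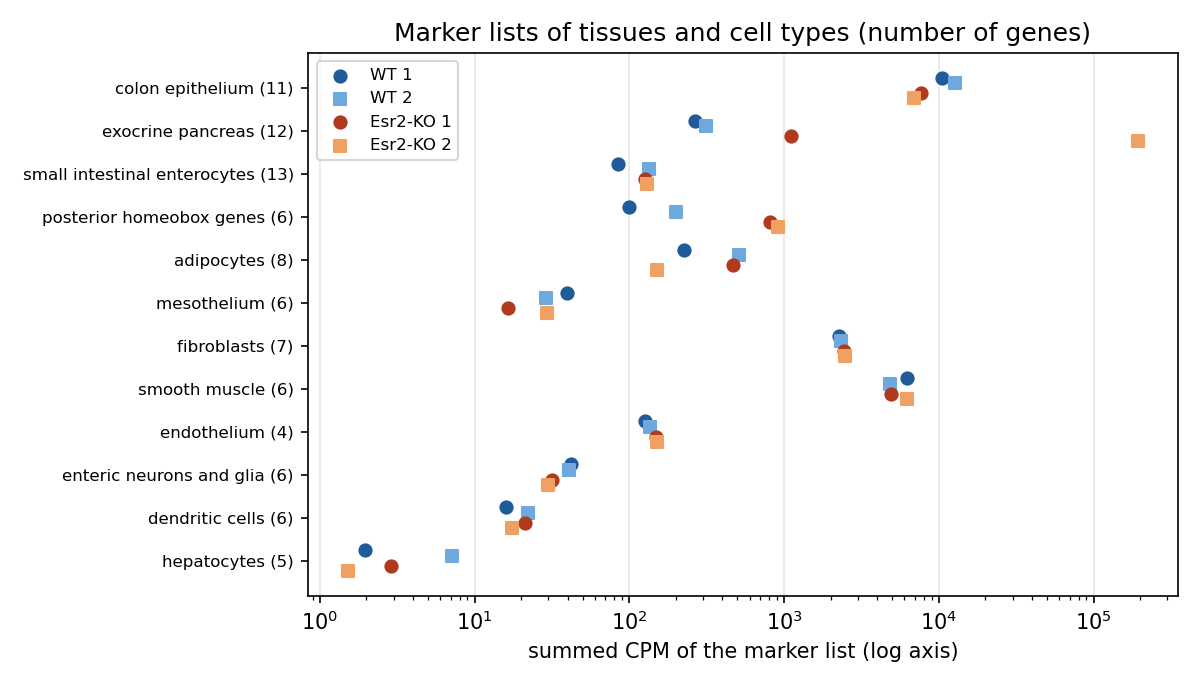
Summed CPM of each marker list (number of genes in brackets) in the 4 libraries, on a log axis. Posterior homeobox genes lie at 99.4 and 201 in WT and at 811 and 921 in Esr2-KO, and the exocrine pancreas list reaches 193795 in Esr2-KO 2, while the fibroblast sums stay between 2251 and 2472.

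The 5 genes whose profile over the 4 libraries lay closest to that of Lrat were Cyp2c65, Malrd1, Tmigd1, Saa3 and Cxcl9. The measure was the root mean square distance of centred log2 CPM, with 0.1 CPM added, and it ran from 0.23 for Cyp2c65 to 0.45 for Cxcl9. Tmigd1, a membrane protein of enterocytes, went from 93.7 and 169 CPM in WT to 16.7 and 2.92 CPM in Esr2-KO, with the same order of libraries as Lrat. Saa3 and Cyp2c65 have close relatives whose reads could have been split. With 4 libraries this likeness is a description only.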

How the data were processed

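Total RNA from colon was depleted of ribosomal RNA and made into directional libraries, per the labels' protocols, and aligned with HISAT2 to mm10, per the submitters' processing notes. The authors deposited whole-number counts, 1 value per symbol and library, with no normalization. For the counting program, annotation, strand setting and filters, nothing is given in the sources used here, and reads that overlapping or closely similar genes share could have gone to either. No exon of a member overlapped an exon of another gene in GENCODE M21.

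Genes were kept with filterByExpr (minimum count 10, minimum total 15), which left 17169, scaled by TMM (factors 1.08, 1.04, 1.04 and 0.856) and fitted with edgeR 4.0.16 in R 4.3.3 (glmQLFit and glmQLFTest, two-sided, Benjamini-Hochberg, 2 residual degrees of freedom). Alternatives were scaling by library totals, by upper quartiles or by DESeq2 size factors, no low-count filter or at least 1 CPM in 2 libraries, DESeq2 1.42.0 on all genes with a count or after the low-count filter (the latter added after seeing the data), limma-voom (limma 3.58.1), the replicate number as a block, exocrine pancreas genes left out of scaling, and each library left out. Standard errors come from the F statistic and the coefficient. Libraries of the same group were not duplicates (chi-square per degree of freedom 39.7 in WT and 478 in Esr2-KO). The procedure was tested on simulated data. The members and all lists were chosen with earlier results of these data known. Genes named were all members, pathway genes past the threshold or otherwise the 2 with the smallest p of a list, the most abundant markers and the 5 profiles nearest to Lrat. Isx, Scarb1, Dgat1, Awat2, Stra6, Dhrs9, Rdh9, Aldh1a7 and the markers Epcam, Cdx1, Cdx2, Cdh1, Krt20, Slc26a3, Vil1, Fabp1, Lct, Mttp, Sis, Treh, Hoxd12 and Spink1 were named beyond that rule after their values were seen. One gene of the pathway lists is not reported here.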

Additional observations from a re-analysis of the deposited data

How the results depend on the processing

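All genes past the threshold numbered 462, and 699 with library totals, 1916 with no low-count filter (25515 genes), 1682 with DESeq2 on the same 25515 genes, 1737 with DESeq2 after the low-count filter, a setting chosen after seeing the data, and 165 to 1804 with each library left out. The tested genes had a median shifted by -0.16 (log2) with library totals, where 30.0% of the calls were higher, against 48.3% with TMM. Of the members, 2 passed, 5 with no low-count filter and with DESeq2 (Rbp2, Rbp4 and Aldh1a2 besides), 4 with DESeq2 after that filter (Rbp2 and Aldh1a2 besides) and 1 to 4 with each library left out. Of the other pathway genes 6 passed, 12 with no low-count filter and 4 to 9 with each library left out. Direction turned for Rdh10 (-0.04 with library totals), Dhrs3 (-0.46 to 0.01 with each library left out, the latter without Esr2-KO 1) and Cyp26b1 (0.08 with limma-voom, 0.01 with the replicate block, and -1.26 to 1.27 with each library left out, above 0 without WT 2 and, at 0.58, without Esr2-KO 2). The cause of these changes was not tested. The replicate numbers are not stated to pair libraries, and deviations of same-numbered libraries had a correlation of -0.0888. In the fit with a replicate block 490 genes passed, 343 of them among the 462, and 2 members. Where a library was left out, the lone library of its group was assumed to vary like the others.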

Other observations

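The other aldehyde dehydrogenase genes were examined after the values were seen. Of 16 tested, 1 rose and 0 fell in Esr2-KO colon, with a median log2 fold change of 0.12. At an unadjusted p under 0.05 in edgeR 5 were higher and 1 lower, where 1663 and 1872 of all 17169 tested genes were. DESeq2 and limma-voom each called 2 higher and 0 lower. Over all tested genes DESeq2 called 796 higher and 874 lower, and limma-voom 304 and 302. The one that rose was Aldh1l1, the cytosolic 10-formyltetrahydrofolate dehydrogenase of folate metabolism, from 33.2 and 49.1 CPM in WT to 114 and 133 CPM in Esr2-KO (1.59 ± 0.20, SE, n = 2 per group, edgeR adjusted p = 0.0219). Aldh2, the mitochondrial enzyme that clears acetaldehyde, stood at 336 and 399 CPM in the WT libraries against 630 and 833 CPM in the Esr2-KO libraries (1.0 ± 0.21, edgeR adjusted p = 0.059). Aldh1b1, another mitochondrial enzyme and a close relative of the Aldh1a group, stood at 145 and 189 CPM in the WT libraries against 173 and 159 CPM in the Esr2-KO libraries, with overlapping groups. Since only 1.39% of all tested genes passed as lower, the 0 falls among these 16 do not show whether Aldh1a1 fell alone. The 16 leave out the members Aldh1a2 (-1.03, not past the threshold) and Aldh1a3 (0.29).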
